A study of Mus musculus with 12 samples.

Results

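The livers of 3 mice labelled *Ahr* HKO were set against those of 3 mice labelled WT, all on the control diet. They were picked by the genotype and diet in their labels, and they make up 6 of the 12 libraries of the study. Of the 24532 genes in the deposited table, the 14038 with enough counts were tested. All mice were male and on a C57BL/6 background, and they were 10 to 12 weeks old when the feeding began. For 5 weeks both groups took an isocaloric liquid diet without ethanol, the partner of the Lieber-DeCarli ethanol diet that the other 6 mice received. The *Ahr* HKO mice were *Ahr* fl/fl *Alb-Cre*, in which the promoter of the albumin gene drives Cre recombinase in hepatocytes. The WT mice were *Ahr* fl/fl littermates without a detectable *Cre* gene. Both groups therefore carried the floxed allele, with loxP sites around exon 2 of *Ahr*, and they differed in Cre. A group with Cre and an intact *Ahr* gene was not part of the study, so an effect of the transgene cannot be told apart from that of the deletion. The RNA came from whole liver, which also holds cells that do not express albumin.

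AhR, the aryl hydrocarbon receptor, is a transcription factor that is switched on by small molecules. Without a ligand it rests in the cytosol in a complex with the chaperone HSP90 and the co-chaperone p23. With a ligand it enters the nucleus, pairs with ARNT and binds DNA at sites with the core GCGTG, and genes such as *Cyp1a1* and *Tiparp* respond. In hepatocytes it is best known for inducing enzymes that clear foreign compounds, and tryptophan products such as kynurenine are among its natural ligands.

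The reads counted on genes numbered 46306518 to 61659352 in the 6 libraries, and 3 counts corresponded to 0.0490 to 0.0655 CPM, which counting error alone sets. Expression is given as CPM on library sizes scaled with TMM factors, always in the order of liver 1, 2 and 3 of a group. The log2 FC is that of *Ahr* HKO over WT. It is followed by ± an approximate standard error (SE), which is its size divided by the square root of the edgeR F statistic. A DEG is a gene that changed by more than 1.5-fold, up or down, with an adjusted *P* value under 0.05. Hepatocyte marker genes summed to 109708 to 116249 CPM in WT and 107630.0 to 153414 CPM in the livers labelled *Ahr* HKO, and 2 of the 9 were DEGs, both upregulated. These were *Hnf4a* and *Fgb*, an acute phase gene treated below. *Fgb* had 5869, 9431 and 7843 CPM in WT against 18782, 17277 and 23337 CPM, so the sum includes its rise. *Alb*, the largest part of the sum, had 58073, 49730 and 60675 CPM against 47276, 48118 and 82129 CPM. Kupffer cell markers summed to 520.3 to 675 CPM in WT and 467 to 1266 CPM in the livers labelled *Ahr* HKO. They were highest in *Ahr* HKO liver 1 (1266 CPM) and lowest in *Ahr* HKO liver 3 (467 CPM), and none of the 12 was a DEG. Without *Ahr* HKO liver 3, 7 of the 12 were upregulated DEGs, and their median log2 FC went from 0.45 to 0.74. Markers of monocytes and neutrophils summed to 62.8 to 66.6 CPM in WT and 73.0 to 185 CPM in the livers labelled *Ahr* HKO. Of 10 tested, 5 were upregulated DEGs, among them *S100a8*, *S100a9* and *Itgam*, each at 8.88 CPM or less. *Lyz2* gave most of the sum, with 57.1, 54.7 and 57.2 CPM against 157, 111 and 54.6 CPM. *Cx3cr1* went the other way, with 0.764, 0.857 and 0.613 CPM against 0.131, 0.495 and 0.363 CPM. Lymphocyte markers summed to 7.12 to 11.5 CPM in WT and 4.44 to 7.87 CPM in the livers labelled *Ahr* HKO, endothelial markers to 479.9 to 618 CPM in WT and 543 to 562 CPM in the livers labelled *Ahr* HKO and stellate cell markers to 430.0 to 548 CPM in WT and 398 to 414 CPM in the livers labelled *Ahr* HKO. Cholangiocyte markers, of which *Spp1* gave most of the sum, summed to 67.1 to 154 CPM in WT and 55.8 to 490.5 CPM in the livers labelled *Ahr* HKO. Red cell genes, most of them hemoglobins with near-identical copies, summed to 457 to 891 CPM in WT and 142 to 289 CPM in the livers labelled *Ahr* HKO. Of the 12 markers of pancreas, fat and muscle, 8 had no count in any of the 6 libraries. In whole liver, fewer cells of a type and less RNA per cell cannot be told apart.

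A large share of the transcriptome differed between the genotypes on the control diet. In total 2782 genes, 19.8% of those tested, were DEGs. Among them 1353 (9.64%) were higher and 1429 (10.2%) were lower in the livers labelled *Ahr* HKO, and 158 and 111 of these changed by over 4-fold. The median log2 FC of all tested genes was 0.00. In 47.3% of the tested genes the livers of the groups did not overlap, and this held for 2768 of the 2782 DEGs. Of all 14038 tested genes, 3256 lay without overlap above WT and 3390 below it. The log2 FC was above 0 in 6973 of them and below 0 in 7061. With 3 livers a group, an exact permutation test of a single gene cannot go below *P* = 0.1, so calls rest on edgeR, which shares the spread across genes. The gene groups below are each described by how many of their tested members were DEGs, to be read against 9.64% and 10.2%, and by their median log2 FC.

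**Figure D1:**
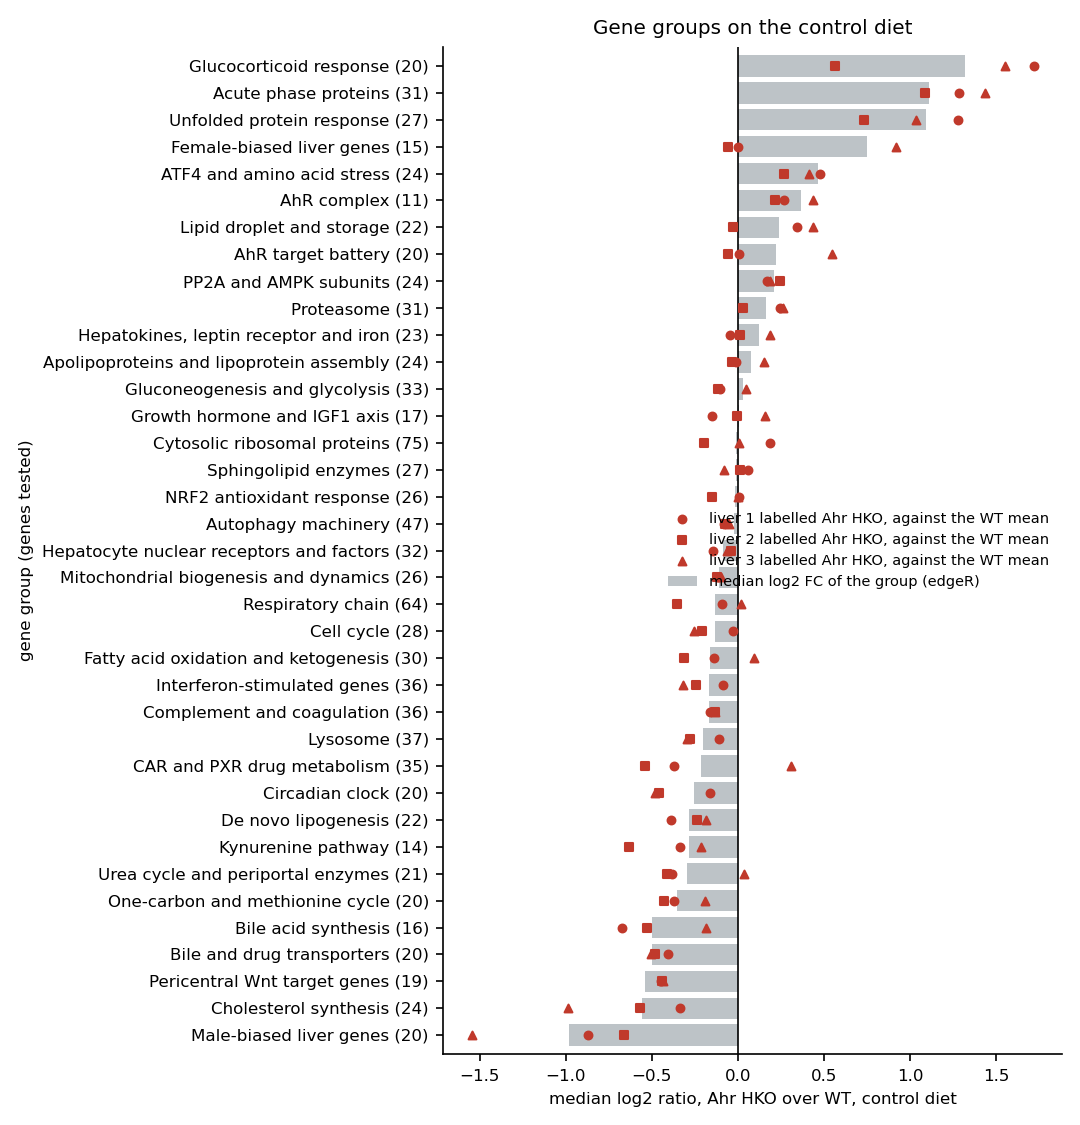
Median log2 FC of *Ahr* HKO over WT on the control diet for 37 gene groups (bars), with the median of each liver labelled *Ahr* HKO against the mean of the WT livers on the scale of log2(CPM + 0.5) (points), sorted by the bar. Glucocorticoid-responsive, acute phase and unfolded protein response genes stood highest, with medians of 1.32, 1.11 and 1.09, and male-biased genes lowest, with −0.98.

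The targeted gene itself was higher in the livers labelled *Ahr* HKO. *Ahr* (Entrez 11622, chromosome 12) had 20.1, 16.6 and 18.3 CPM in the WT livers and 65.5, 41.3 and 63.3 CPM in the livers labelled *Ahr* HKO, and the groups did not overlap (log2 FC 1.63 ± 0.19, adjusted *P* = 0.0017). This goes against the direction in which a lost transcript would move, so the livers are named by their labels throughout. The study itself reports PCR for the excised and unexcised alleles in representative tissues and primary hepatocytes. From this it concludes that the gene was deleted specifically in hepatocytes, and it reports AhR silencing in these cells by immunoblot. Whether the sequenced livers were among those samples is not given in the sources used here. The deposited counts are sums over a whole gene. In the annotation GENCODE M21 of GRCm38, exon 2 of *Ahr* lies on the minus strand at chr12:35526681-35526868 and has 188 bases, all coding, of the 5548 bases of the transcript Ahr-202. It thus makes up 3.39% of the transcript, and a count per gene cannot show whether it was removed. Its length leaves a remainder of 2 bases on division by 3. The exon is printed because it is the part that Cre removes and that the counts cannot resolve, with no part in capitals:

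*Ahr* exon 2: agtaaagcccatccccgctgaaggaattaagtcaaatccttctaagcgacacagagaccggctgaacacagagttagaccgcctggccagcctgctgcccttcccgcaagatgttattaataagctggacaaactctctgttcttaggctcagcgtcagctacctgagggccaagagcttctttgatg

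Few partners of AhR were called. Of 11 tested genes of the AhR complex, 2 were upregulated DEGs, *Ahr* itself and 1 of its 10 partners, *Hsp90aa1*, a share near the 9.64% of all genes. None was downregulated, with a median log2 FC of 0.37. *Hsp90aa1*, which codes for the stress-inducible form of HSP90, had 86.2, 114 and 73.1 CPM in the WT livers and 415, 341 and 285 CPM in the livers labelled *Ahr* HKO, a 3.81-fold difference without overlap (log2 FC 1.93 ± 0.21, adjusted *P* = 0.0014). *Arnt*, the DNA-binding partner, had 31.3, 32.3 and 28.2 CPM against 37.0, 45.2 and 53.2 CPM and an FC of 1.47, just below the limit of 1.5 for a DEG (log2 FC 0.56 ± 0.14, adjusted *P* = 0.024). *Ptges3*, which codes for p23, had a log2 FC of 0.40 with an adjusted *P* value of 0.019. Members that were not called included *Hsp90ab1* 0.37, *Tiparp* 0.96, *Ncoa2* 0.31, *Ncoa3* 0.11, *Ncoa1* −0.33 and *Src* −0.50 on the log2 scale. *Arnt2* and *Ahrr*, the repressor that AhR induces, had too few counts to be tested. With 1 liver left out, the adjusted *P* value no longer passed 0.05 for some of these genes, at up to 0.0830 for *Arnt* (without WT liver 3) and 0.0736 for *Ptges3* (without WT liver 3).

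Genes known or reported to respond to AhR did not move in a single direction. Of 20 tested, 3 were upregulated and 3 downregulated, with a median of 0.22, which was −0.06 without *Ahr* HKO liver 3. *Cyp1a2*, a pericentral hepatocyte enzyme that metabolizes caffeine and aromatic amines, had 617, 398 and 456 CPM in the WT livers and 90.7, 112 and 258 CPM in the livers labelled *Ahr* HKO. It was lower in each liver labelled *Ahr* HKO (log2 FC −1.67 ± 0.40, adjusted *P* = 0.019). *Cyp1a1*, the enzyme most used as a readout of AhR, was weakly expressed in both groups, with 0.349, 0.214 and 0.204 CPM against 0.898, 0.444 and 0.827 CPM, and was called higher (log2 FC 1.495 ± 0.46, adjusted *P* = 0.046). *Ces3b*, a carboxylesterase, had 581, 802 and 693 CPM against 242, 391.8 and 298 CPM (log2 FC −1.16 ± 0.21, adjusted *P* = 0.007), and *Slc46a3*, a lysosomal transporter, had 30.0, 28.9 and 44.6 CPM against 17.4, 11.6 and 11.7 CPM (log2 FC −1.34 ± 0.23, adjusted *P* = 0.0058). Both fell without overlap. *Xdh*, which makes uric acid from xanthine, had 147, 126 and 129 CPM against 347, 216 and 334 CPM (log2 FC 1.16 ± 0.19, adjusted *P* = 0.0053), and *Scara5*, a ferritin receptor, had 13.1, 18.0 and 51.6 CPM against 125, 115 and 58.5 CPM (log2 FC 1.85 ± 0.54, adjusted *P* = 0.038). Both rose. In *Scara5*, WT liver 3 lay close to *Ahr* HKO liver 3. The 3 upward calls of this group were reduced to 1 when *Ahr* HKO liver 1, WT liver 1 or WT liver 2 was left out. Genes that missed the threshold of 0.05 when 1 liver was left out had adjusted *P* values of up to 0.0607 for *Cyp1a2* (without WT liver 1), 0.132 for *Cyp1a1* (without *Ahr* HKO liver 1) and 0.114 for *Scara5* (without WT liver 2).

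The remaining targets were not DEGs. *Tiparp* had 5.48, 4.84 and 4.09 CPM against 5.85, 5.87 and 16.4 CPM, with *Ahr* HKO liver 3 apart from the other livers. *Nqo1*, a quinone reductase, had 3.41, 1.79 and 2.72 CPM against 1.70, 1.25 and 2.44 CPM, and the groups overlapped. *Cyp1b1* stayed between 0.524 and 0.853 CPM in all livers. The log2 FC was −0.10 for *Ugt1a6a*, −0.58 for *Ugt1a6b*, 0.89 for *Gsta1*, 0.77 for *Gsta2*, 0.01 for *Lrat*, 0.29 for *Fmo2*, −0.70 for *Inmt*, 0.16 for *Serpinb6a* and 0.72 for *Cd36*. *Ugt1a6a* and *Ugt1a6b*, like *Gsta1* and *Gsta2*, are near-identical pairs whose reads could have been divided between the copies. *Ppp2r2d*, a regulatory subunit of PP2A whose control by AhR the study examined, had 20.8, 20.4 and 18.9 CPM against 24.2, 25.8 and 31.7 CPM. Every liver labelled *Ahr* HKO lay above every WT liver, and the adjusted *P* value was under 0.05 at an FC of 1.36 (log2 FC 0.44 ± 0.12, adjusted *P* = 0.029). An adjusted *P* value under 0.05 for *Ppp2r2d* was lost without WT liver 3, among others, at 0.0983.

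The core GCGTG, read on both strands of 250 bases before to 50 bases after a start site in RefSeq (GRCm38.p6), was common in promoters. It was found in 53.6% of the 11127 tested genes with a listed promoter, in 56.6% of the upregulated DEGs and in 53.5% of the downregulated ones. Of the AhR targets with a listed promoter, 7 of 16 held it. The matches of *Cyp1a1* and *Tiparp* are shown with the core in capitals and 10 bases on each side, because these are the genes by which AhR activity is usually read. Each sequence runs along the strand of its gene, which is named, and a core on the opposite strand reads CACGC:

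Cyp1a1, chr9:57697549-57697573, plus strand: agataaggagGCGTGgccaacagac
Tiparp, chr3:65528267-65528291, plus strand: ccgtccggagCACGCgcacgggagg

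**Figure D2:**
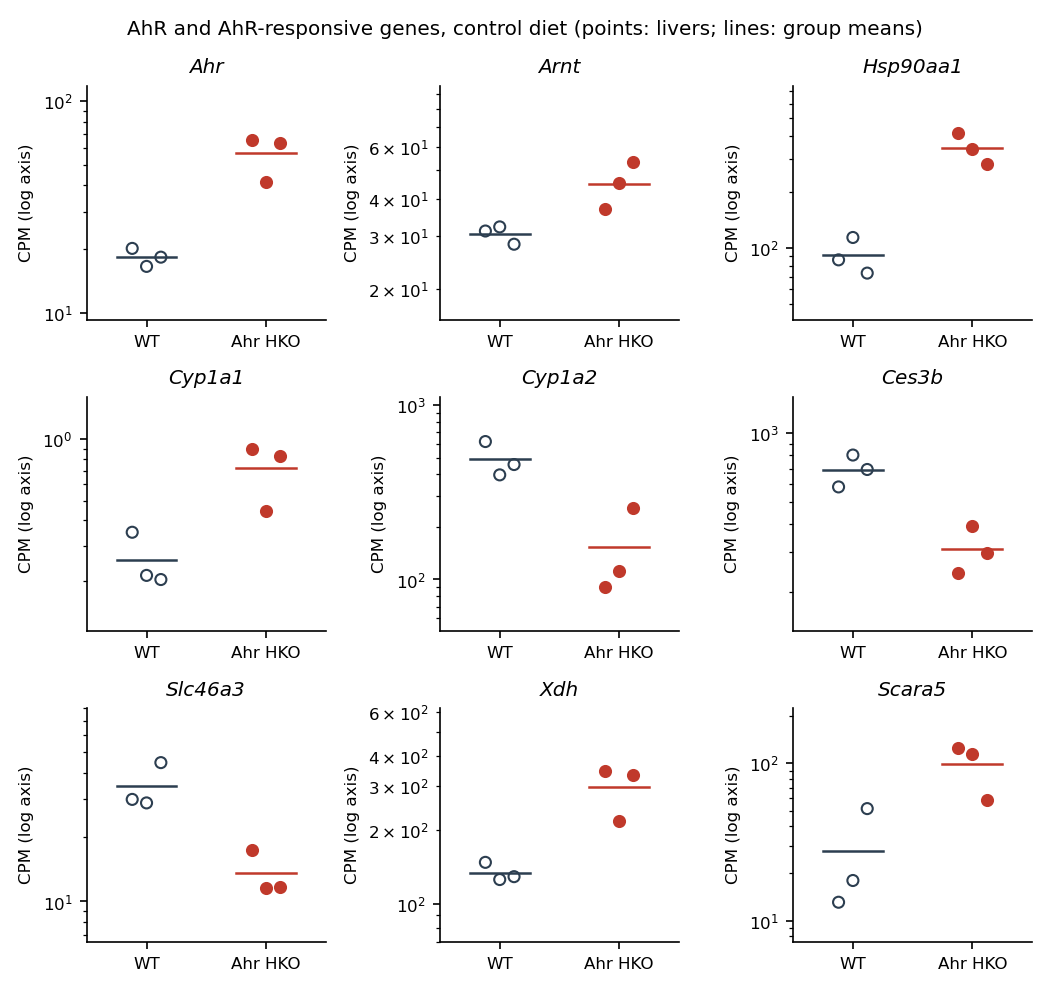
CPM (log axis) of *Ahr*, its partners *Arnt* and *Hsp90aa1*, and 6 AhR-responsive genes in each control-diet liver, with open circles for WT and filled circles for livers labelled *Ahr* HKO, and a line at each group mean. *Ahr*, *Hsp90aa1*, *Cyp1a1*, *Xdh* and *Scara5* lie higher and *Cyp1a2*, *Ces3b* and *Slc46a3* lower in the livers labelled *Ahr* HKO.

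Genes of the unfolded protein response rose almost as a group. This response is turned on when proteins misfold in the endoplasmic reticulum (ER), and its sensors ATF6, IRE1 and PERK raise the chaperones and the degradation machinery of the ER. Of 27 tested members 21 were upregulated DEGs and none was downregulated, against 9.64% and 10.2% of all genes, with a median log2 FC of 1.09. *Hspa5*, which codes for the master ER chaperone BiP, had 372, 476 and 345 CPM in the WT livers and 2949, 1218 and 1921 CPM in the livers labelled *Ahr* HKO. The lowest liver labelled *Ahr* HKO held over 2-fold the CPM of the highest WT liver (log2 FC 2.35 ± 0.33, adjusted *P* = 0.003). Among the other chaperones and folding factors, *Creld2* had 29.3, 43.8 and 23.8 CPM against 535, 135 and 336 CPM (log2 FC 3.38 ± 0.50, adjusted *P* = 0.0038), *Hyou1* 88.7, 133 and 87.9 CPM against 696, 336 and 543 CPM (log2 FC 2.35 ± 0.30, adjusted *P* = 0.0023), *Manf* 40.3, 50.2 and 36.3 CPM against 247, 129 and 193 CPM (log2 FC 2.17 ± 0.25, adjusted *P* = 0.0017) and *Sdf2l1* 40.0, 41.8 and 18.2 CPM against 216, 78.5 and 107 CPM (log2 FC 2.00 ± 0.45, adjusted *P* = 0.015). *Syvn1*, the ubiquitin ligase of ER-associated degradation, had 73.0, 93.8 and 69.8 CPM against 619, 264 and 497 CPM (log2 FC 2.55 ± 0.31, adjusted *P* = 0.002). In all of these, *Ahr* HKO liver 1 was highest and liver 2 lowest of the group, and none overlapped with WT. *Dnajb9*, a co-chaperone controlled by XBP1, was tighter, with 20.3, 21.8 and 22.8 CPM against 73.6, 74.9 and 82.2 CPM (log2 FC 1.83 ± 0.10, adjusted *P* = 0.00044).

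Transcription factors of the response rose too. *Xbp1*, whose messenger is spliced by IRE1, had 154, 225 and 179 CPM against 371, 344 and 503 CPM (log2 FC 1.13 ± 0.20, adjusted *P* = 0.0067), and counts per gene do not separate its spliced form. *Ddit3*, which codes for the death-associated factor CHOP, had 5.41, 6.07 and 5.42 CPM against 15.3, 6.91 and 12.04 CPM (log2 FC 1.02 ± 0.27, adjusted *P* = 0.028). The members without a call were the sensors *Atf6* (0.30) and *Ern1* (0.18), the lectin chaperone *Canx* (0.28), and the degradation factors *Derl1* (0.47), *Derl2* (−0.52) and *Derl3* (1.09). *Derl1* had an adjusted *P* value of 0.0077 at an FC below 1.5, and *Derl2* was the only member with a log2 FC below 0. The number of upregulated members lay between 14 and 21 when a liver was left out, and between 17 and 21 under the other alternatives. An adjusted *P* value under 0.05 for *Ddit3* was lost without WT liver 3, among others, at 0.0843.

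Several promoters of this group share a sequence. The group was put together from known genes of this response, so a high share within it is not independent evidence. The ER stress response element (ERSE), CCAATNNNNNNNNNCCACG, is where ATF6 binds together with NF-Y. Read on both strands of the 300 bases around a start site, it was present in 37 of 27025 genes (0.137%) in the table of promoters. Among tested genes with a listed promoter it was present in 21 of 11127, which is 0.189%. Of these 21 genes, 10 were upregulated DEGs, from 1067 upregulated DEGs with a promoter, and none was among the 1114 downregulated DEGs with a promoter. Of the unfolded protein response genes, 9 of 23 with a promoter held it. Outside this group 12 tested genes held the element, with a median log2 FC of 0.38, and 3 of them were upregulated DEGs. These 3 were *Acnat2* (3.02), *Alg12* (1.28), which codes for a mannosyltransferase of the ER and lies next to *Creld2*, and *Ero1lb* (0.62), which codes for an oxidase of the ER. They are named because they hold the element, after their values were seen. Of the 22 matches in tested genes 7 overlapped a GCGTG core. A match is a description of letters and not evidence of binding. An adjusted *P* value under 0.05 for *Ero1lb* was lost without WT liver 1, among others, at 0.0717.

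The matches in the unfolded protein response group are printed with the element in capitals and 10 bases on each side, so that the CCAAT and CCACG ends can be compared. Each runs along the strand of its gene, which is named, and an element on the opposite strand reads CGTGG to ATTGG. *Calr* and *Pdia6* missed the threshold of 0.05 when single livers were left out, at adjusted *P* values of up to 0.0725 without WT liver 3 and 0.119 without *Ahr* HKO liver 1. With all 6 livers, *Hspa5*, *Creld2*, *Syvn1*, *Hsp90b1*, *Dnajc3*, *Calr* and *Pdia6* were DEGs, and *Canx* and *Derl3* were not:

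Hspa5, chr2:34772015-34772053, plus strand: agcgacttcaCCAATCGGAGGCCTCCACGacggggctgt
Creld2, chr15:88819510-88819548, plus strand: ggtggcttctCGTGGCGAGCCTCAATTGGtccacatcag
Syvn1, chr19:6046522-6046560, plus strand: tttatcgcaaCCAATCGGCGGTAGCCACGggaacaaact
Hsp90b1, chr10:86705628-86705666, minus strand: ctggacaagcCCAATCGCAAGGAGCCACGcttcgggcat
Hsp90b1, chr10:86705523-86705561, minus strand: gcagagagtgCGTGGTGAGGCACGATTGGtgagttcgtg
Dnajc3, chr14:118937817-118937855, plus strand: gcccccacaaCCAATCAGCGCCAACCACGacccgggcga
Calr, chr8:84847065-84847103, minus strand: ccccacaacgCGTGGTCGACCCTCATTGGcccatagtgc
Pdia6, chr12:17266481-17266519, plus strand: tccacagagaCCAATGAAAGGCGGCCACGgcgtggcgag
Canx, chr11:50325790-50325828, minus strand: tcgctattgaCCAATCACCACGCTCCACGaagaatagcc
Derl3, chr10:75893232-75893270, plus strand: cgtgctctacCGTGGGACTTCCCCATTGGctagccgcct

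**Figure D3:**
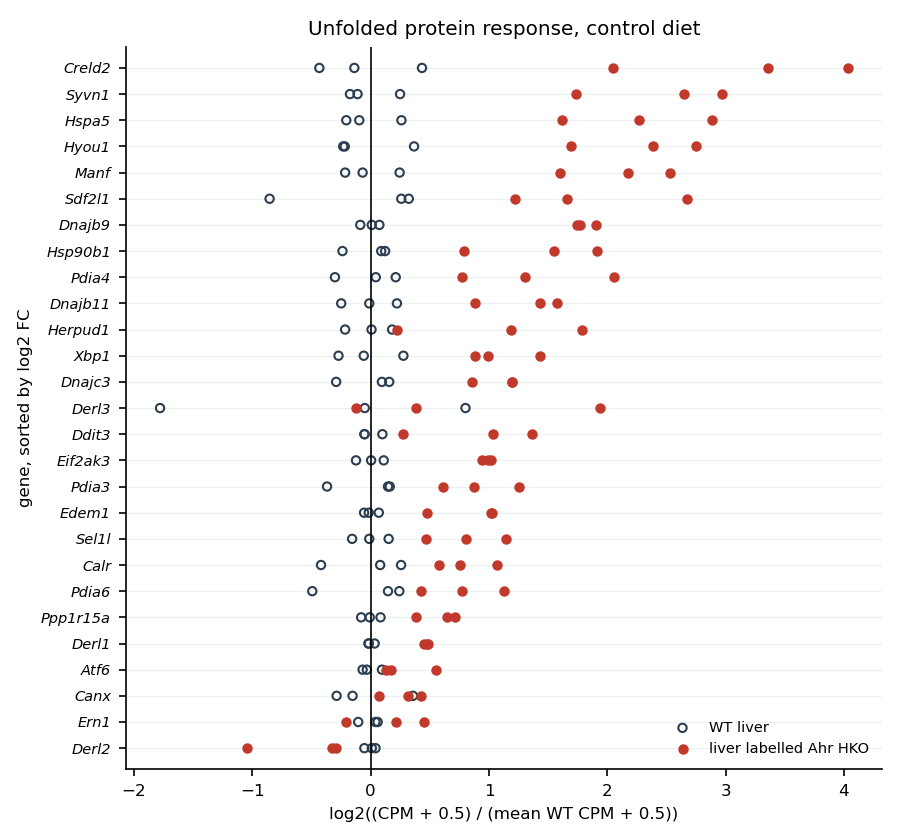
log2 ratio (0.5 CPM added to each value) of each control-diet liver to the mean of the 3 WT livers for the 27 unfolded protein response genes, sorted by log2 FC, with open circles for WT and filled circles for livers labelled *Ahr* HKO. In all 21 upregulated members the groups are separate, and *Derl2* alone lies on average below WT.

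The neighbouring ATF4 branch, which handles amino acid shortage, held fewer calls. Of 24 tested members 6 rose and 1 fell, with a median of 0.47. The upregulated members included *Gdf15*, a stress hormone (log2 FC 1.82 ± 0.52, adjusted *P* = 0.037), *Psph* (1.79 ± 0.24, adjusted *P* = 0.0026) and *Psat1* (1.41 ± 0.36, adjusted *P* = 0.023) of serine synthesis, *Nupr1* (1.49 ± 0.35, adjusted *P* = 0.019) and the mitochondrial folate enzyme *Mthfd2* (0.99 ± 0.26, adjusted *P* = 0.026). *Atf4* itself had 58.1, 77.7 and 75.7 CPM against 95.7, 91.9 and 115 CPM, with a log2 FC of 0.52 and an adjusted *P* value of 0.036. *Asns* (1.22, 1.14 and 2.53 CPM against 6.68, 3.41 and 0.807 CPM) and *Trib3* (23.7, 8.34 and 8.50 CPM against 7.61, 5.80 and 5.95 CPM) were not called. The 6 upward calls were 1 without *Ahr* HKO liver 1 or WT liver 2, and 3 without WT liver 1, without WT liver 3 or with the replicate block. Leaving out 1 liver raised some of these genes above the threshold of 0.05, to adjusted *P* values of up to 0.114 for *Gdf15* (without WT liver 2), 0.0800 for *Psat1* (without WT liver 2), 0.0570 for *Nupr1* (without *Ahr* HKO liver 1), 0.0827 for *Mthfd2* (without WT liver 1) and 0.0943 for *Atf4* (without WT liver 1).

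Acute phase proteins rose broadly as well. These are plasma proteins that hepatocytes secrete on signals such as interleukin-6, which acts through gp130 and STAT3. Of 31 tested members 17 were upregulated, none was downregulated, and all 31 had a log2 FC above 0, with a median of 1.11. *Serpina3n*, a protease inhibitor, had 432, 736 and 755 CPM in the WT livers and 6130.2, 5299.7 and 8116 CPM in the livers labelled *Ahr* HKO, a 10.2-fold difference (log2 FC 3.35 ± 0.29, adjusted *P* = 0.00092). *Steap4*, a metalloreductase, had 97.8, 227 and 157 CPM against 1887, 1211 and 2760.4 CPM (log2 FC 3.60 ± 0.41, adjusted *P* = 0.0017), and *Serpina3m* had 352, 369.7 and 375 CPM against 1502, 1204 and 2207 CPM (log2 FC 2.16 ± 0.23, adjusted *P* = 0.0014). The *Serpina3* genes are a family of similar copies, so their single values are uncertain. *A2m*, which codes for a protease trap that is scarce in adult mouse liver, went from under 0.1 CPM in each WT liver to 30.8, 5.02 and 9.22 CPM (log2 FC 7.78 ± 0.94, adjusted *P* = 0.0019). The 3 fibrinogen chains rose alike: *Fga* had 4392, 6291 and 5526 CPM against 14687, 14945 and 17686 CPM (log2 FC 1.55 ± 0.20, adjusted *P* = 0.0025), *Fgb* 5869, 9431 and 7843 CPM against 18782, 17277 and 23337 CPM (log2 FC 1.36 ± 0.24, adjusted *P* = 0.0066) and *Fgg* 3345, 4729.5 and 3986 CPM against 9699.6, 9710.1 and 12636 CPM (log2 FC 1.41 ± 0.21, adjusted *P* = 0.0035). *Crp*, a weak acute phase protein in the mouse, rose with little spread and had 298, 308 and 268 CPM against 638, 565 and 686 CPM (log2 FC 1.11 ± 0.12, adjusted *P* = 0.0016). *Il1rn*, the interleukin-1 receptor antagonist, had 2.53, 4.55 and 4.21 CPM against 15.99, 6.81 and 10.4 CPM (log2 FC 1.55 ± 0.35, adjusted *P* = 0.015). The feedback inhibitor *Socs3* had 17.0, 37.9 and 11.7 CPM against 41.4, 65.1 and 90.0 CPM (log2 FC 1.56 ± 0.46, adjusted *P* = 0.04). An adjusted *P* value under 0.05 for *Socs3* was lost without WT liver 1, among others, at 0.121.

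The strongest acute phase genes of the mouse were not called. *Saa1* had 31.5, 2571 and 2696 CPM against 3065, 1772 and 3254 CPM, and WT liver 1 stood apart from the other 5 livers. *Hp*, haptoglobin, had 2604, 10038 and 7434 CPM against 12751, 9771 and 11757 CPM, again with WT liver 1 lowest (log2 FC 0.77 ± 0.44, adjusted *P* = 0.23). Without WT liver 1 the number of upregulated acute phase members was 16 of 31, and the range over all livers left out was 15 to 17. The Kupffer and monocyte marker sums given above were higher in *Ahr* HKO livers 1 and 2 than in any WT liver. In *Ahr* HKO liver 3 the Kupffer sum was the lowest of the 6, and *Serpina3n* was highest (8116 CPM). The monocyte and neutrophil sum in this liver (73.0 CPM) was above that of each WT liver. *Lyz2*, which gave most of that sum, had 54.6 CPM there and 54.7 to 57.2 CPM in WT. The part of these cells in the result was not tested beyond these values.

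**Figure D4:**
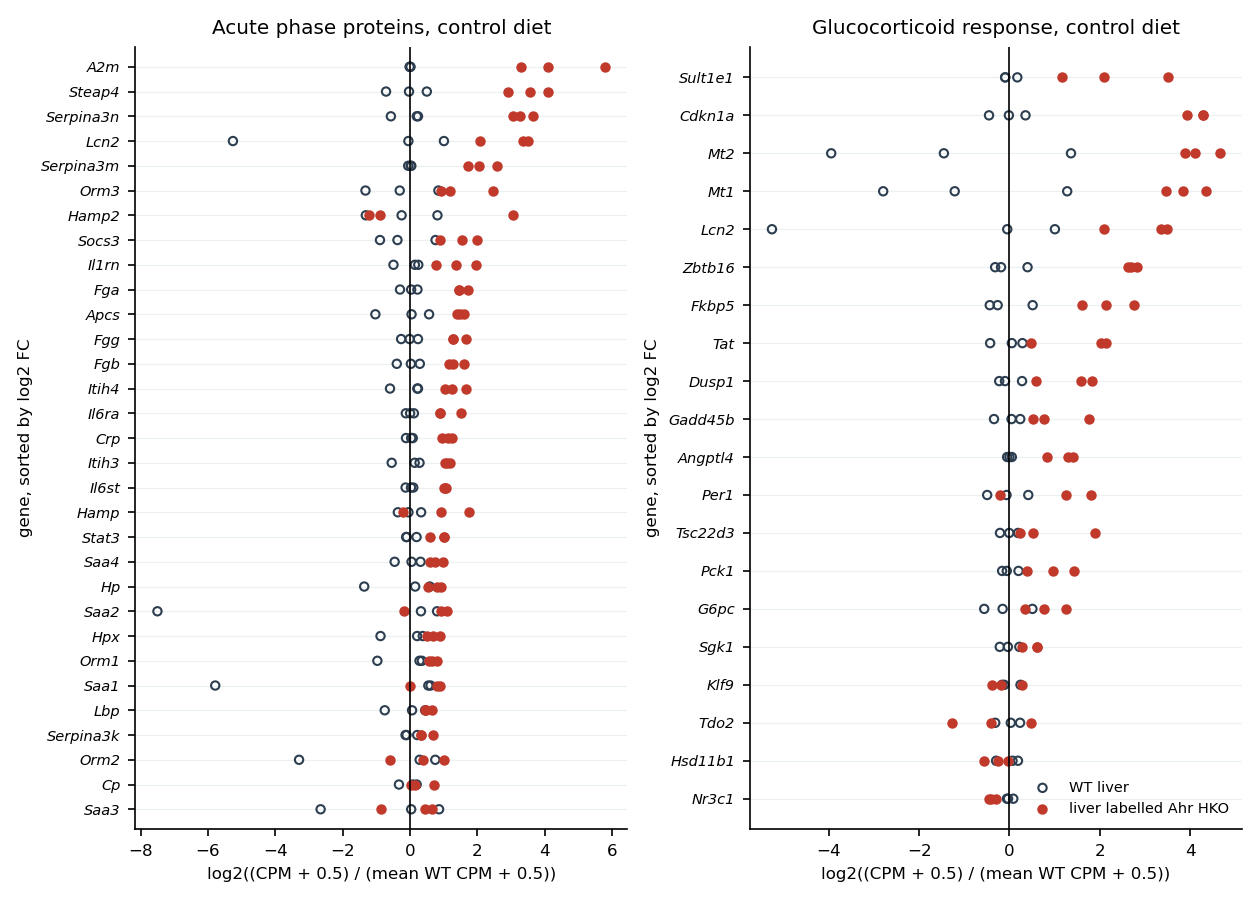
log2 ratio (0.5 CPM added to each value) of each control-diet liver to the mean of the 3 WT livers for the 31 acute phase genes (left) and the 20 glucocorticoid-responsive genes (right), sorted by log2 FC, with open circles for WT and filled circles for livers labelled *Ahr* HKO. In *Saa1*, *Saa2* and *Lcn2* WT liver 1 lies far below the other WT livers, and in *Mt1* and *Mt2* the WT livers spread widely.

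The group of complement and clotting factors, which hepatocytes also secrete, showed no such rise. It did not include the fibrinogen chains, which were counted with the acute phase proteins. Of 36 tested, 1 was upregulated and 5 were downregulated, with a median of −0.17. The contact phase proteins *Klkb1* (−1.37 ± 0.13, adjusted *P* = 0.0011) and *F11* (−1.08 ± 0.14, adjusted *P* = 0.0026) fell together with *C2* (−1.04 ± 0.18, adjusted *P* = 0.006), *Serpind1* (−0.66 ± 0.11, adjusted *P* = 0.005) and *C8b* (−0.63 ± 0.16, adjusted *P* = 0.022). *C3* (0.57), prothrombin *F2* (−0.07) and *Plg* (−0.10) were not called. Interferon-stimulated genes were also mostly uncalled, with 1 of 36 up, *Irgm1* (0.62 ± 0.10, adjusted *P* = 0.0057), and 3 down, *Usp18* (−1.82 ± 0.28, adjusted *P* = 0.004), *Ifit3* (−0.89 ± 0.20, adjusted *P* = 0.015) and *Ifit3b* (−0.99 ± 0.25, adjusted *P* = 0.024). The log2 FC was −0.20 for *Isg15* and −0.69 for *Ifit1*, neither of them called. Among genes that lost an adjusted *P* value under 0.05 with 1 liver left out, the highest values were 0.0776 for *C8b* (without WT liver 2) and 0.0736 for *Ifit3b* (without WT liver 1).

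Genes that respond to glucocorticoids held many increases. Of 20 tested, 11 rose and none fell, with the highest median of the 37 groups, 1.32. The log2 FC was above 0 in 16 members and below 0 in 4. Well-known targets of the receptor were among the members without a call, namely *Tsc22d3*, *Per1*, *Sgk1* and *Klf9*, as were *Tdo2* and *G6pc*. *Fkbp5*, a chaperone that dampens the receptor, had 52.5, 59.4 and 102 CPM in the WT livers and 317, 217 and 486 CPM in the livers labelled *Ahr* HKO (log2 FC 2.25 ± 0.36, adjusted *P* = 0.0048). *Zbtb16* had 15.3, 10.1 and 9.14 CPM against 77.6, 74.04 and 84.4 CPM (log2 FC 2.77 ± 0.20, adjusted *P* = 0.00072), and *Cdkn1a*, which codes for the cell cycle inhibitor p21, had 2.36, 1.61 and 3.19 CPM against 55.9, 43.6 and 55.3 CPM, a 21.7-fold difference (log2 FC 4.44 ± 0.26, adjusted *P* = 0.00044). *Mt1* (3.94 ± 0.99, adjusted *P* = 0.023) and *Mt2* (4.26 ± 1.21, adjusted *P* = 0.035), the metallothioneins, differed strongly, but the WT livers ranged from 5.04 to 219 CPM of *Mt2*. *Tat*, tyrosine aminotransferase, had 578, 352 and 491 CPM against 2075, 657 and 1931 CPM, with *Ahr* HKO liver 2 nearest to WT (log2 FC 1.71 ± 0.42, adjusted *P* = 0.022). *Dusp1* (1.45 ± 0.31, adjusted *P* = 0.014) and *Sult1e1*, the estrogen sulfotransferase (0, 0 and 0.102 CPM against 5.55, 0.699 and 1.77 CPM, log2 FC 6.23 ± 1.21, adjusted *P* = 0.0093), rose as well. The receptor gene *Nr3c1* had 63.4, 57.5 and 58.5 CPM against 44.6, 48.4 and 43.4 CPM, a log2 FC of −0.39 with an adjusted *P* value of 0.017. Several members also answer to other signals, *Cdkn1a* to p53 and the metallothioneins to metals. Without WT liver 2 the number of upregulated members was 6, and with every other liver left out it was 8 to 11. With 1 liver left out, the adjusted *P* value no longer passed 0.05 for some of these genes, at up to 0.0738 for *Mt1* (without WT liver 2), 0.104 for *Mt2* (without WT liver 2), 0.0770 for *Tat* (without WT liver 2), 0.0509 for *Dusp1* (without WT liver 1) and 0.0626 for *Nr3c1* (without WT liver 1).

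Liver genes that are more expressed in males than in females moved the other way. They depend on the pulsed secretion of growth hormone in males, which acts through STAT5B. Of 20 tested, 9 fell, none rose and all 20 had a log2 FC below 0, with a median of −0.98. *Hsd3b5*, a steroid dehydrogenase found almost only in male liver, had 256, 241 and 252 CPM in the WT livers and 9.15, 27.0 and 18.4 CPM in the livers labelled *Ahr* HKO, a 13.8-fold decrease without overlap (log2 FC −3.78 ± 0.37, adjusted *P* = 0.0011). *Cyp2d9* had 1934, 1780.4 and 1603 CPM against 742, 676 and 674 CPM (log2 FC −1.35 ± 0.13, adjusted *P* = 0.0011), and the fatty acid elongase *Elovl3* had 214, 235 and 192 CPM against 67.8, 94.4 and 42.1 CPM (log2 FC −1.65 ± 0.27, adjusted *P* = 0.0055). *Serpina12* (−1.59 ± 0.49, adjusted *P* = 0.046), *Gstp1* (−1.48 ± 0.30, adjusted *P* = 0.01), *Cyp2u1* (−1.199 ± 0.31, adjusted *P* = 0.026), *Nudt7* (−1.02 ± 0.11, adjusted *P* = 0.0013), *Ces2c* (−0.94 ± 0.21, adjusted *P* = 0.016) and the anion transporter *Slco1a1* (−0.86 ± 0.25, adjusted *P* = 0.041) fell too. The major urinary proteins *Mup1* (9770.2, 8686 and 8161 CPM against 4699, 4416 and 1253 CPM) and *Mup7* (23838, 13581 and 21145 CPM against 8037, 11176 and 1486 CPM) were lower in every liver labelled *Ahr* HKO and lowest in liver 3, but did not pass the test (log2 FC −1.36 ± 0.45, adjusted *P* = 0.059 and log2 FC −1.500 ± 0.64, adjusted *P* = 0.12). Their genes are near-identical copies on chromosome 4, and single values are uncertain. Genes that missed the threshold of 0.05 when 1 liver was left out had adjusted *P* values of up to 0.118 for *Serpina12* (without WT liver 2), 0.0798 for *Cyp2u1* (without WT liver 1), 0.0507 for *Ces2c* (without *Ahr* HKO liver 2) and 0.117 for *Slco1a1* (without WT liver 1).

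Female-biased genes gave a median of 0.75, and 1 of 15 was a DEG, *Sult1e1*. The median was −0.02 without *Ahr* HKO liver 3 and 4.84 without WT liver 1, since many of these genes had few counts. *Cyp2b9* had 33.7 CPM in *Ahr* HKO liver 3 and no count in the other 5 livers. *Cyp3a41a* and *Sult2a1* were not among the genes tested. On the growth hormone axis, 2 of 17 rose and 3 fell. The 2 increases were 0 without *Ahr* HKO liver 3, WT liver 1 or WT liver 3, and 1 without any other liver. The receptor *Ghr* had 432, 319 and 303 CPM against 217, 205 and 269 CPM (log2 FC −0.61 ± 0.18, adjusted *P* = 0.037), and *Igfals*, the carrier of IGF1, had 87.7, 109.9 and 117 CPM against 25.9, 38.0 and 56.2 CPM (log2 FC −1.39 ± 0.27, adjusted *P* = 0.0095). *Igfbp2* fell (−0.95 ± 0.17, adjusted *P* = 0.0063) and *Igfbp1*, which insulin suppresses, rose (2.36 ± 0.66, adjusted *P* = 0.033), with *Ahr* HKO liver 2 inside the WT range. *Igf1* (0.13) was not called, and *Stat5b* had a log2 FC of −0.51 with an adjusted *P* value of 0.022. Leaving out 1 liver raised some of these genes above the threshold of 0.05, to adjusted *P* values of up to 0.0997 for *Ghr* (without *Ahr* HKO liver 1), 0.105 for *Igfbp1* (without WT liver 2) and 0.0750 for *Stat5b* (without WT liver 1).

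Of 16 genes of bile acid synthesis 6 fell and 1 rose, with a median of −0.50. *Cyp7a1* (Entrez 13122, chromosome 4), the rate-limiting enzyme, had 36.5, 83.4 and 217 CPM in the WT livers and 5.62, 9.59 and 1.43 CPM in the livers labelled *Ahr* HKO. The WT livers spread about 6-fold, and each lay above each liver labelled *Ahr* HKO (log2 FC −4.33 ± 0.86, adjusted *P* = 0.01). *Cyp8b1*, which directs synthesis toward cholic acid, had 646, 576 and 491 CPM against 79.8, 146 and 68.6 CPM (log2 FC −2.54 ± 0.30, adjusted *P* = 0.0018). *Amacr* (−1.10 ± 0.10, adjusted *P* = 0.001), *Hsd3b7* (−0.93 ± 0.14, adjusted *P* = 0.004), *Akr1c6* (−0.60 ± 0.17, adjusted *P* = 0.038) and *Cyp46a1* (−1.72 ± 0.39, adjusted *P* = 0.016) fell as well, while *Cyp2c70*, which makes muricholic acids in mice, rose (0.93 ± 0.20, adjusted *P* = 0.014). *Cyp27a1*, which opens the alternative route, was not called (−0.19). Bile and drug transporters had 7 of 20 down and none up. The bile acid uptake gene *Slc10a1* had 678, 713 and 686 CPM against 262, 348 and 406 CPM (log2 FC −1.03 ± 0.17, adjusted *P* = 0.0053). The sterol exporter genes *Abcg8* (−1.65 ± 0.19, adjusted *P* = 0.0017) and *Abcg5* (−1.07 ± 0.15, adjusted *P* = 0.0028) were also lower. *Abcc6* (−1.02 ± 0.11, adjusted *P* = 0.0016), *Slco1b2* (−0.79 ± 0.13, adjusted *P* = 0.0053) and *Slc47a1* (−0.68 ± 0.11, adjusted *P* = 0.005) fell too, and the bile salt export pump *Abcb11* was not called (−0.40). The receptors *Nr1h4* (−0.04), which codes for FXR, and its target *Nr0b2* (0.47), which codes for SHP, were not called. Among genes that lost an adjusted *P* value under 0.05 with 1 liver left out, the highest values were 0.113 for *Akr1c6* (without WT liver 1), 0.0556 for *Cyp46a1* (without WT liver 1) and 0.0552 for *Cyp2c70* (without WT liver 2).

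The groups of lipid synthesis held more decreases than increases, and that of lipid droplets held more increases. In cholesterol synthesis and uptake, 8 of 24 fell and none rose, with a median of −0.56. These 8 calls were 5 without WT liver 2, which was the highest of the 6 livers in 21 of the 24 genes. *Mvk* (−1.30 ± 0.20, adjusted *P* = 0.0044), *Insig1* (−1.21 ± 0.24, adjusted *P* = 0.0098), *Stard4* (−1.04 ± 0.19, adjusted *P* = 0.007), *Sc5d* (−0.95 ± 0.14, adjusted *P* = 0.0037), *Fdft1* (−0.93 ± 0.27, adjusted *P* = 0.039) and *Nsdhl* (−0.80 ± 0.18, adjusted *P* = 0.016) were among the members that fell, and *Sqle* was not called (0.28). In fatty acid synthesis, 6 of 22 fell. *Srebf1*, which codes for the factor that drives the pathway, had 358, 297 and 306 CPM in the WT livers and 69.7, 76.7 and 86.4 CPM in the livers labelled *Ahr* HKO, a 4.13-fold decrease with little spread (log2 FC −2.05 ± 0.13, adjusted *P* = 0.00061). *Acss2* (−1.63 ± 0.19, adjusted *P* = 0.0018), *Fasn* (−1.02 ± 0.30, adjusted *P* = 0.039), *Dgat2* (−0.91 ± 0.11, adjusted *P* = 0.0021), *Gpam* (−0.90 ± 0.19, adjusted *P* = 0.014) and *Acly* (−0.75 ± 0.19, adjusted *P* = 0.025) fell with it. *Lpin1*, a phosphatidate phosphatase, was the single increase (1.83 ± 0.32, adjusted *P* = 0.0065), with 3 without *Ahr* HKO liver 1, and *Scd1* was not called (0.61). With 1 liver left out, the adjusted *P* value no longer passed 0.05 for some of these genes, at up to 0.121 for *Fdft1* (without WT liver 2), 0.0563 for *Nsdhl* (without WT liver 2), 0.118 for *Fasn* (without WT liver 2) and 0.0787 for *Acly* (without WT liver 2).

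Of 22 lipid droplet and storage genes, 6 rose and 1 fell, with a median of 0.24. *Cidec*, which fuses lipid droplets, had 1.40, 2.23 and 1.29 CPM against 11.9, 30.1 and 32.9 CPM, a 15.1-fold difference (log2 FC 3.92 ± 0.43, adjusted *P* = 0.0016). *Plin2*, the coat protein of droplets in hepatocytes, had 338, 501 and 325 CPM against 709, 757 and 965 CPM (log2 FC 1.06 ± 0.21, adjusted *P* = 0.0098). *Plin4* (2.92 ± 0.44, adjusted *P* = 0.0038), *Fabp4* (2.38 ± 0.23, adjusted *P* = 0.0011), *G0s2* (1.17 ± 0.34, adjusted *P* = 0.039) and *Hilpda* (1.12 ± 0.22, adjusted *P* = 0.009) rose too, and hormone-sensitive lipase, *Lipe*, fell (−0.95 ± 0.15, adjusted *P* = 0.0042). *Pparg* was not called (−0.31). Fatty acid oxidation held few DEGs, with 1 of 30 up, *Pdk4* (0.97 ± 0.23, adjusted *P* = 0.02), and 2 down, *Slc27a2* (−0.61 ± 0.12, adjusted *P* = 0.01) and *Ppargc1a* (−0.61 ± 0.17, adjusted *P* = 0.034). The log2 FC was 0.34 for *Ppara* and 0.00 for *Cpt1a*, neither called. The increase was lost without *Ahr* HKO liver 1 or any of the WT livers, and the 2 decreases were 0 without WT liver 2 and 1 without *Ahr* HKO liver 2, WT liver 1 or WT liver 3. Among lipoprotein genes 4 of 24 rose, *Apoa4* (1.26 ± 0.25, adjusted *P* = 0.01), *Angptl4* (1.196 ± 0.16, adjusted *P* = 0.0025), *Abca1* (1.18 ± 0.18, adjusted *P* = 0.0039) and *Apoa5* (1.04 ± 0.28, adjusted *P* = 0.028), and *Apom* fell (−0.60 ± 0.09, adjusted *P* = 0.0042). *Apob* (0.22) and *Mttp* (−0.26) were not called. Of 27 sphingolipid enzymes 3 rose, 5 without *Ahr* HKO liver 2, and 3 fell. *Sptlc2*, a subunit of the enzyme that starts ceramide synthesis, had 18.2, 18.8 and 17.5 CPM against 62.0, 45.4 and 53.4 CPM (log2 FC 1.56 ± 0.13, adjusted *P* = 0.0009), and the ceramide synthase *Cers6* had 15.6, 12.9 and 9.57 CPM against 66.8, 42.2 and 115 CPM (log2 FC 2.55 ± 0.37, adjusted *P* = 0.0035). *Acer2* rose (1.29 ± 0.12, adjusted *P* = 0.0011), and *Sgms2* (−1.48 ± 0.28, adjusted *P* = 0.009), *Ormdl1* (−0.92 ± 0.10, adjusted *P* = 0.0014) and *Smpd2* (−0.91 ± 0.11, adjusted *P* = 0.0017) fell. *Cers2* (−0.36) and *Sphk2* (−0.77) were not called. Genes that missed the threshold of 0.05 when 1 liver was left out had adjusted *P* values of up to 0.119 for *G0s2* (without WT liver 1), 0.0674 for *Pdk4* (without WT liver 2), 0.0506 for *Slc27a2* (without WT liver 2), 0.115 for *Ppargc1a* (without WT liver 2) and 0.0873 for *Apoa5* (without WT liver 1).

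The study turns on autophagy and on the kinase AMPK and the phosphatase PP2A that act on it. Of 47 genes of the autophagy machinery 2 rose and 5 fell, shares of 4.26% and 10.6% beside the 9.64% and 10.2% of all genes, and the median was −0.02. The 2 increases were 1 without *Ahr* HKO liver 2, WT liver 2 or WT liver 3. *Atg13*, a subunit of the ULK1 kinase complex, had 43.9, 47.1 and 45.3 CPM against 69.5, 69.3 and 81.8 CPM (log2 FC 0.70 ± 0.10, adjusted *P* = 0.0034). *Calcoco1* (−1.03 ± 0.12, adjusted *P* = 0.0019), *Wipi1* (−0.94 ± 0.18, adjusted *P* = 0.009), *Uvrag* (−0.80 ± 0.09, adjusted *P* = 0.0017), *Atg10* (−0.75 ± 0.17, adjusted *P* = 0.017) and *Gabarapl1* (−0.73 ± 0.16, adjusted *P* = 0.015) fell. *Ulk1* (0.17) and *Map1lc3b* (0.28) were not called. *Sqstm1*, which codes for the cargo receptor p62, had 403, 387 and 365 CPM against 522, 531 and 549 CPM without overlap, with a log2 FC of 0.47 and an adjusted *P* value of 0.014. Of 37 lysosome genes 1 rose and 5 fell, and 28 of 37 had a log2 FC below 0 (median −0.20). *Tfe3*, a relative of the lysosomal regulator TFEB, had 25.3, 22.9 and 21.4 CPM against 46.2, 37.5 and 39.6 CPM (log2 FC 0.82 ± 0.11, adjusted *P* = 0.0029), while *Glb1* (−1.41 ± 0.20, adjusted *P* = 0.0033), the cholesterol exporter *Npc1* (−1.06 ± 0.18, adjusted *P* = 0.0064), *Neu1* (−0.97 ± 0.14, adjusted *P* = 0.0035) and *Naglu* (−0.79 ± 0.10, adjusted *P* = 0.0023) fell. *Tfeb* had a log2 FC of −0.45 with an adjusted *P* value of 0.035, and *Lamp1* (−0.20) and *Ctsd* (−0.20) were not called. Leaving out 1 liver raised some of these genes above the threshold of 0.05, to adjusted *P* values of up to 0.0650 for *Atg10* (without WT liver 3), 0.0650 for *Sqstm1* (without WT liver 3) and 0.108 for *Tfeb* (without WT liver 3).

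Of 24 tested subunits of PP2A and AMPK 2 rose, 1 without *Ahr* HKO liver 3, and 3 fell. These shares, 8.33% and 12.5%, were near the 9.64% and 10.2% of all genes. *Prkaa2*, which codes for the α2 catalytic subunit of AMPK, had 48.6, 45.3 and 41.1 CPM in the WT livers and 24.0, 30.8 and 21.9 CPM in the livers labelled *Ahr* HKO (log2 FC −0.82 ± 0.14, adjusted *P* = 0.0065), and *Prkaa1*, which codes for α1, was not called (0.18). Among PP2A subunits, the catalytic *Ppp2cb* (0.65 ± 0.10, adjusted *P* = 0.005) and the regulatory *Ppp2r5b* (0.72 ± 0.14, adjusted *P* = 0.0091) rose, and the regulatory *Ppp2r5a* (−0.97 ± 0.10, adjusted *P* = 0.0014) and *Ppp2r3a* (−0.89 ± 0.18, adjusted *P* = 0.012) fell. *Ppp2r5a* had 149, 149.8 and 137 CPM against 67.8, 80.1 and 74.2 CPM, with no overlap. Genes for mitochondrial biogenesis and dynamics counted 7 decreases and no increase among 26. They included the coactivators *Ppargc1b* (−1.61 ± 0.35, adjusted *P* = 0.014) and *Ppargc1a*, the nuclear receptor *Esrra* (−1.14 ± 0.13, adjusted *P* = 0.0016), *Polg2* (−1.28 ± 0.22, adjusted *P* = 0.0057), *Sirt3* (−0.86 ± 0.10, adjusted *P* = 0.0018), *Mief2* (−0.76 ± 0.09, adjusted *P* = 0.0017) and *Mfn2* (−0.69 ± 0.09, adjusted *P* = 0.0025). *Tfam* (−0.19) was not called, and *Nrf1* had a log2 FC of 0.51 with an adjusted *P* value of 0.0081. None of 64 respiratory chain genes was a DEG (median −0.13), with log2 FCs of −0.29 for *Ndufs1*, −0.07 for *Cox4i1* and −0.21 for *Atp5b*.

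In the kynurenine pathway, through which the liver breaks down tryptophan and which yields AhR ligands, 5 of 14 genes fell and 1 rose. *Tdo2*, the enzyme of the first step in hepatocytes, had 1142, 780.0 and 991 CPM against 726, 401 and 1361 CPM and overlapping groups (−0.23). *Ido2* had 93.8, 94.8 and 91.8 CPM against 45.1, 53.1 and 57.8 CPM (log2 FC −0.85 ± 0.11, adjusted *P* = 0.0026), *Kynu* 152, 161 and 175 CPM against 86.3, 89.8 and 83.7 CPM (log2 FC −0.91 ± 0.10, adjusted *P* = 0.0014) and *Aadat* 139, 129 and 109 CPM against 55.6, 64.7 and 53.3 CPM (log2 FC −1.12 ± 0.13, adjusted *P* = 0.0017), all without overlap. *Afmid* (−0.95 ± 0.23, adjusted *P* = 0.02) and *Nadsyn1* (−0.84 ± 0.09, adjusted *P* = 0.0015) also fell, *Nnmt* rose (1.16 ± 0.31, adjusted *P* = 0.028), and *Kmo* was not called (0.19). In one-carbon metabolism 3 of 20 fell, *Gamt* (−0.92 ± 0.13, adjusted *P* = 0.0036), *Mthfd1* (−0.71 ± 0.11, adjusted *P* = 0.0045) and *Bhmt2* (−0.61 ± 0.11, adjusted *P* = 0.0062). *Mat1a* (0.39) and *Gnmt* (−0.16) were not called, and *Bhmt* had a log2 FC of −0.56 with an adjusted *P* value of 0.034. Among genes that lost an adjusted *P* value under 0.05 with 1 liver left out, the highest values were 0.0629 for *Afmid* (without WT liver 1), 0.0763 for *Nnmt* (without WT liver 2) and 0.140 for *Bhmt* (without WT liver 3).

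Hepatocytes around the central vein and around the portal vein run different programs, the first of them kept by Wnt signals. Of 19 pericentral Wnt targets 6 fell and none rose, with a median of −0.54. *Notum*, a secreted Wnt inhibitor, had 60.4, 50.2 and 58.0 CPM in the WT livers and 13.9, 23.03 and 15.1 CPM in the livers labelled *Ahr* HKO (log2 FC −1.70 ± 0.20, adjusted *P* = 0.0018). *Lgr5*, the R-spondin receptor, had 7.596, 11.4 and 8.56 CPM against 3.66, 3.99 and 3.35 CPM (log2 FC −1.33 ± 0.18, adjusted *P* = 0.003), and *Nkd1* (−0.85 ± 0.14, adjusted *P* = 0.0057), *Sp5* (−1.22 ± 0.33, adjusted *P* = 0.031) and *Znrf3* (−0.63 ± 0.14, adjusted *P* = 0.014) fell with *Cyp1a2*. *Glul* had 1133, 1369 and 1344 CPM against 1550.2, 1336 and 1499.8 CPM and was not called (0.19), like *Axin2* (−0.62) and *Cyp2e1* (−0.57). Among periportal and urea cycle genes 3 of 21 rose, *Tat*, *Pck1* and *Sdsl* (1.28 ± 0.25, adjusted *P* = 0.0091), and 2 fell, *Hal* (−0.95 ± 0.24, adjusted *P* = 0.023) and *Cyp2f2* (−0.66 ± 0.13, adjusted *P* = 0.0099). *Cps1* (0.34) and *Ass1* (−0.43) were not called. The 3 increases were 1 without *Ahr* HKO liver 1, WT liver 2 or WT liver 3, and the 2 decreases were 4 without *Ahr* HKO liver 3 and 1 without *Ahr* HKO liver 1, *Ahr* HKO liver 2 or WT liver 3. With 1 liver left out, the adjusted *P* value no longer passed 0.05 for some of these genes, at up to 0.101 for *Sp5* (without WT liver 3), 0.0504 for *Znrf3* (without WT liver 1), 0.0975 for *Pck1* (without WT liver 2) and 0.0687 for *Hal* (without *Ahr* HKO liver 1).

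Of 33 genes of gluconeogenesis and glycolysis 4 rose and 6 fell. *Pck1*, the gate of gluconeogenesis, had 1092, 1017 and 1307 CPM against 3044, 1494 and 2226 CPM (log2 FC 0.99 ± 0.26, adjusted *P* = 0.028), and *Pfkfb3* (1.88 ± 0.53, adjusted *P* = 0.034) and *Ldha* (1.13 ± 0.19, adjusted *P* = 0.0056) rose too. *Pdk2* had 160.1, 135 and 158 CPM against 57.7, 54.0 and 41.2 CPM (log2 FC −1.57 ± 0.15, adjusted *P* = 0.0011), glycogen synthase *Gys2* 217, 206 and 180.2 CPM against 75.3, 73.9 and 101 CPM (log2 FC −1.27 ± 0.15, adjusted *P* = 0.002), and *Pdk1* fell (−0.82 ± 0.16, adjusted *P* = 0.009). *G6pc* was not called (0.84). The increases were 1 without *Ahr* HKO liver 1 or WT liver 1 and 2 without WT liver 2 or 3, and the decreases were 3 without any of the WT livers. The NRF2 group, which guards against oxidants, had 4 of 26 up and 3 down. *Srxn1*, which repairs peroxiredoxins, had 27.1, 28.1 and 31.6 CPM in the WT livers and 326, 328 and 217 CPM in the livers labelled *Ahr* HKO, a 10.03-fold difference (log2 FC 3.33 ± 0.19, adjusted *P* = 0.00044). *Gclc* (1.14 ± 0.24, adjusted *P* = 0.012), *Hmox1* (1.09 ± 0.17, adjusted *P* = 0.0042) and *Txnrd1* (0.96 ± 0.12, adjusted *P* = 0.0021) rose, and *Osgin1* (−1.22 ± 0.29, adjusted *P* = 0.02), *Gclm* (−0.60 ± 0.10, adjusted *P* = 0.0048) and *Cat* (−0.60 ± 0.17, adjusted *P* = 0.038) fell. *Nfe2l2*, which codes for NRF2, was not called (−0.17). The 3 decreases were 1 without *Ahr* HKO liver 1, WT liver 1 or WT liver 2. Genes that missed the threshold of 0.05 when 1 liver was left out had adjusted *P* values of up to 0.102 for *Pfkfb3* (without WT liver 1), 0.0639 for *Osgin1* (without WT liver 1) and 0.113 for *Cat* (without *Ahr* HKO liver 1).

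In the group of drug-metabolizing genes listed with CAR and PXR, 6 of 35 fell and 1 rose, with a median of −0.21. Not all of its members are under these receptors, as it also holds *Cyp2e1* and *Cyp2f2*. Without *Ahr* HKO liver 2 the counts were 4 down and 5 up, with a median of 0.01, and without *Ahr* HKO liver 3 they were 9 down and 1 up. *Nr1i3*, which codes for CAR, had 103, 93.7 and 84.9 CPM against 58.7, 45.2 and 77.2 CPM (log2 FC −0.63 ± 0.19, adjusted *P* = 0.044), and *Nr1i2*, which codes for PXR, was not called (0.00). *Cyp2a5* (−1.55 ± 0.46, adjusted *P* = 0.042), *Ugt2b35* (−1.29 ± 0.19, adjusted *P* = 0.0036), *Ugt2b34* (−0.77 ± 0.11, adjusted *P* = 0.0033) and *Ugt2b5* (−0.71 ± 0.13, adjusted *P* = 0.0085) fell, all from families of similar copies, and *Cyp3a13* rose (0.77 ± 0.13, adjusted *P* = 0.0056). *Cyp3a11* (1629, 649.9 and 672 CPM against 599, 861 and 1186 CPM) and *Cyp2b10* (0.262, 0 and 0 CPM against 0.817, 0.239 and 6.78 CPM) were not called. Of 32 nuclear receptors and hepatocyte factors 4 rose, 2 without *Ahr* HKO liver 3 or WT liver 2, and 8 fell. *Hnf4a*, which maintains hepatocyte identity, had 626, 553 and 529 CPM in the WT livers and 1095, 1002 and 1236 CPM in the livers labelled *Ahr* HKO (log2 FC 0.97 ± 0.14, adjusted *P* = 0.0031). *Rxrg* (−1.79 ± 0.40, adjusted *P* = 0.015), *Rarb* (−1.27 ± 0.20, adjusted *P* = 0.0042), *Esrra*, *Nr2f2* (−0.97 ± 0.13, adjusted *P* = 0.003) and both thyroid hormone receptors, *Thra* (−0.93 ± 0.13, adjusted *P* = 0.0029) and *Thrb* (−0.97 ± 0.28, adjusted *P* = 0.035), fell. In the circadian clock 5 of 20 genes fell and 1 rose, with 8 decreases without *Ahr* HKO liver 1. *Dbp* had 83.4, 96.1 and 121 CPM against 41.1, 12.5 and 17.5 CPM (log2 FC −2.08 ± 0.42, adjusted *P* = 0.011), *Per3* 23.5, 14.4 and 34.1 CPM against 9.83, 3.09 and 5.44 CPM (log2 FC −1.97 ± 0.46, adjusted *P* = 0.018) and *Nfil3*, the opponent of DBP, 10.3, 11.3 and 9.06 CPM against 22.7, 25.6 and 37.0 CPM (log2 FC 1.48 ± 0.19, adjusted *P* = 0.0025). *Bhlhe41* (−0.72 ± 0.14, adjusted *P* = 0.01) and *Nr1d1* (−0.67 ± 0.11, adjusted *P* = 0.0054) fell, and *Arntl* (0.56), *Clock* (−0.02) and *Per2* (0.15) were not called. The hour at which each liver was taken is not given in the sources used here. Leaving out 1 liver raised some of these genes above the threshold of 0.05, to adjusted *P* values of up to 0.125 for *Nr1i3* (without WT liver 1), 0.114 for *Cyp2a5* (without WT liver 1), 0.103 for *Thrb* (without WT liver 1) and 0.0547 for *Per3* (without WT liver 3).

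Among hepatokines and iron genes 4 of 23 rose, 2 without WT liver 2 or 3, and 1 fell. *Lepr*, the leptin receptor, had 3.43, 3.41 and 2.39 CPM against 10.7, 9.57 and 37.0 CPM, with liver 3 highest (log2 FC 2.63 ± 0.54, adjusted *P* = 0.012). The iron importer *Slc11a2* rose (0.79 ± 0.15, adjusted *P* = 0.0084) and the exporter ferroportin, *Slc40a1*, fell (−1.05 ± 0.20, adjusted *P* = 0.0088). *Hamp*, which codes for hepcidin, had 560.2, 431 and 347 CPM against 385, 848 and 1502 CPM and overlapping groups (1.03), and *Fgf21* was not called (0.12). Of 28 cell cycle genes 1 rose, *Cdkn1a*, and 2 fell, *Cdkn2c* (−1.21 ± 0.19, adjusted *P* = 0.0049) and *E2f1* (−0.96 ± 0.19, adjusted *P* = 0.01). *Ccnd1* (0.94) and *Mki67* (−0.44) were not called. Housekeeping groups held 1 DEG. Of 75 ribosomal protein genes 1, *Rpl34* (0.67 ± 0.19, adjusted *P* = 0.036), was a DEG (median −0.01), and *Rpl3* (−0.03), *Rplp0* (0.12) and *Rps6* (0.18) were not called. None of 31 proteasome genes was a DEG. However, 29 of them had a log2 FC above 0, and 15 had every liver labelled *Ahr* HKO above every WT liver (median 0.17), with 0.24 for *Psma1*, 0.16 for *Psmb5* and 0.31 for *Psmd1*. Among all 14038 tested genes these numbers were 6973 and 3256. Among genes that lost an adjusted *P* value under 0.05 with 1 liver left out, the highest values were 0.0995 for *Rpl34* (without WT liver 3) and 0.153 for *Psmd1* (without WT liver 3).

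The largest increases among well-counted DEGs included genes almost silent in WT. *Gm12070* had no count in the WT livers and 143, 119.9 and 155 CPM in the livers labelled *Ahr* HKO, at least 2315-fold higher when 3 counts in each WT library are taken as the limit. *Tm4sf20* had no count in WT and 10.2, 1.57 and 1.05 CPM, at least 70.9-fold higher by the same rule, with liver 1 far above the others. *Ctse*, a cathepsin, had 0.0873, 0 and 0.123 CPM against 17.9, 12.5 and 22.0 CPM (log2 FC 7.98 ± 0.54, adjusted *P* = 0.00061), and *Akr1b7*, an aldose reductase relative, had 0, 0.125 and 0.102 CPM against 1.45, 3.79 and 10.8 CPM. *Slc10a6*, a sulfated steroid carrier, had 0, 0.214 and 0.143 CPM against 12.02, 1.55 and 2.88 CPM, and *Timp1*, an inhibitor of matrix proteases, had 0.0873, 0 and 0.184 CPM against 8.05, 1.26 and 1.67 CPM, both highest in liver 1. *Adcy1*, an adenylate cyclase, had 0.524, 0.660 and 0.164 CPM against 16.5, 10.9 and 31.4 CPM (log2 FC 5.43 ± 0.57, adjusted *P* = 0.0013), and the membrane protein *Ly6d* had 0.742, 1.98 and 1.25 CPM against 76.9, 35.3 and 21.3 CPM (log2 FC 5.05 ± 0.58, adjusted *P* = 0.0017). *9530077C05Rik* had 0, 0.0714 and 0.225 CPM against 7.46, 2.06 and 2.38 CPM and *Hist1h2bl*, a histone gene with near-identical copies, 0.109, 0.214 and 0.143 CPM against 6.45, 5.22 and 4.34 CPM (log2 FC 5.06 ± 0.31, adjusted *P* = 0.00057). In these genes the fitted log2 FC depends on the few WT counts, and the CPM are the safer description. For *Gm12070* the log2 FC was much lower on ethanol than on the control diet (interaction −15.28). Whether the assignment of reads between similar sequences enters its values was not tested. *A2m* and *Sult1e1* complete the 12.

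The largest decreases were led by *Clec2h*, a lectin-like receptor, with 18.4, 9.19 and 11.2 CPM in the WT livers and 0.0653, 0.256 and 0.484 CPM in the livers labelled *Ahr* HKO (log2 FC −5.63 ± 0.56, adjusted *P* = 0.0012). The transcription factors *Rfx4* (7.25, 5.36 and 5.07 CPM against 0, 0.512 and 0.161 CPM, log2 FC −4.70 ± 0.80, adjusted *P* = 0.0059) and *Sox5* (14.8, 16.8 and 11.7 CPM against 1.52, 2.58 and 1.63 CPM, log2 FC −2.91 ± 0.25, adjusted *P* = 0.00092) fell. *Upp2*, a liver uridine phosphorylase, had 452, 259 and 429 CPM against 40.0, 7.85 and 54.0 CPM (log2 FC −3.49 ± 0.65, adjusted *P* = 0.0083), *Fam13a* 32.5, 23.2 and 15.3 CPM against 2.45, 2.68 and 1.67 CPM (log2 FC −3.38 ± 0.31, adjusted *P* = 0.0011) and the pro-apoptotic *Bmf* 28.2, 19.9 and 17.4 CPM against 2.55, 2.93 and 2.70 CPM (log2 FC −2.998 ± 0.20, adjusted *P* = 0.00061). *C330021F23Rik* (−3.94 ± 0.52, adjusted *P* = 0.0025), *Nrep* (−3.81 ± 0.54, adjusted *P* = 0.0032), *Rdh18-ps* (−3.59 ± 0.57, adjusted *P* = 0.0047) and *Gm11266* (−2.76 ± 0.47, adjusted *P* = 0.0062) complete the 12 with *Cyp7a1* and *Hsd3b5*. None of these overlapped between groups, which the choice required. By absolute CPM, a measure that favours long and abundant transcripts, the 10 genes that differed most were the fibrinogen chains, *Serpina3n*, *Hp*, *Serpina1e*, *Mup1*, *Mup7*, *Mup14* and *Gm2083*. *Serpina1e*, an antitrypsin copy, had 12882, 12711 and 12283 CPM against 7133, 8232 and 7952 CPM (log2 FC −0.70 ± 0.16, adjusted *P* = 0.016). *Mup14* (−1.25) and *Gm2083* (−1.09) were lower in each liver labelled *Ahr* HKO and were not called. Within 5 Mb of *Ahr* 34 genes were tested, and besides *Ahr* the DEGs were *Dock4* (0.83 ± 0.24, adjusted *P* = 0.038), with overlapping groups, and *Ankmy2* (−0.72 ± 0.17, adjusted *P* = 0.017). With 1 liver left out, the adjusted *P* value no longer passed 0.05 for some of these genes, at up to 0.0756 for *Serpina1e* (without WT liver 3), 0.119 for *Dock4* (without WT liver 2) and 0.0586 for *Ankmy2* (without WT liver 3).

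The 6 mice on the ethanol diet offer the same contrast in other animals, and fewer genes passed the test there. By the same thresholds 145 genes (1.03%) were DEGs between the genotypes on ethanol, and 2950 had an unadjusted *P* value under 0.05, against 5916 on the control diet. Of the 145 DEGs, 56 were also DEGs on the control diet, 32 in the same and 24 in the opposite direction. The genes upregulated on the control diet had a median log2 FC of 0.93 there and 0.02 on ethanol, and the downregulated ones −0.96 and 0.00. The first value of each pair reflects the choice of DEGs on that diet. The interaction of genotype and diet was tested in all 12 libraries and passed an adjusted *P* value under 0.05 in 3137 genes (22.3%), among them 1745 of the 2782 control-diet DEGs. The control-diet livers that picked these DEGs also enter the interaction, so that choice raises their share.

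Of the 31 acute phase genes 13 (41.9%) had an interaction, beside 22.3% of all genes. In all 13 the log2 FC was lower on ethanol, and the median of the group was 0.00 there. For *Il1rn* the log2 FC went below 0, to −2.28 (adjusted *P* = 0.13 on ethanol). *Serpina3n* had 881, 487 and 549 CPM in WT and 639, 501 and 586 CPM in the livers labelled *Ahr* HKO on ethanol (interaction −3.50 ± 0.39, adjusted *P* = 0.00037). Of the 27 unfolded protein response genes 6 (22.2%) had an interaction, a share like that of all genes, and the median of the group on ethanol was 0.46. *Hspa5* had 244, 721 and 827 CPM in WT and 663, 1242 and 943 CPM in the livers labelled *Ahr* HKO on ethanol, and its interaction did not pass the test (−1.68 ± 0.60, adjusted *P* = 0.066). Of 20 male-biased genes 16 had an interaction, and the median of the group went from −0.98 on the control diet to 1.91 on ethanol. *Hsd3b5* had 0, 0.143 and 0.605 CPM in WT and 12.5, 91.2 and 88.2 CPM in the livers labelled *Ahr* HKO on ethanol (interaction 11.72 ± 1.25, adjusted *P* = 0.00031). Some genes were DEGs on both diets. These examples were chosen after their values were seen. *Ctse* had 0.340, 0.0954 and 0.0637 CPM in WT and 38.8, 34.5 and 26.7 CPM in the livers labelled *Ahr* HKO on ethanol, *Hist1h2bl* had 0.170, 0.175 and 0.111 CPM in WT and 2.47, 2.72 and 2.28 CPM, *Tat* had 1287, 762 and 1300.0 CPM in WT and 2929, 4235 and 3158 CPM and *Fkbp5* had 75.0, 96.2 and 108 CPM in WT and 233, 244 and 178 CPM. The interaction did not pass the test in any of the 4, with −0.29 ± 0.87, adjusted *P* = 0.84 for *Ctse*, −1.04 ± 0.41, adjusted *P* = 0.088 for *Hist1h2bl*, −0.09 ± 0.53, adjusted *P* = 0.93 for *Tat* and −1.02 ± 0.43, adjusted *P* = 0.11 for *Fkbp5*. *Ahr* had 30.5, 20.8 and 23.4 CPM in WT and 41.8, 32.1 and 24.7 CPM on ethanol, and its difference was smaller than on the control diet (interaction −1.23 ± 0.31, adjusted *P* = 0.018).

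**Figure D5:**
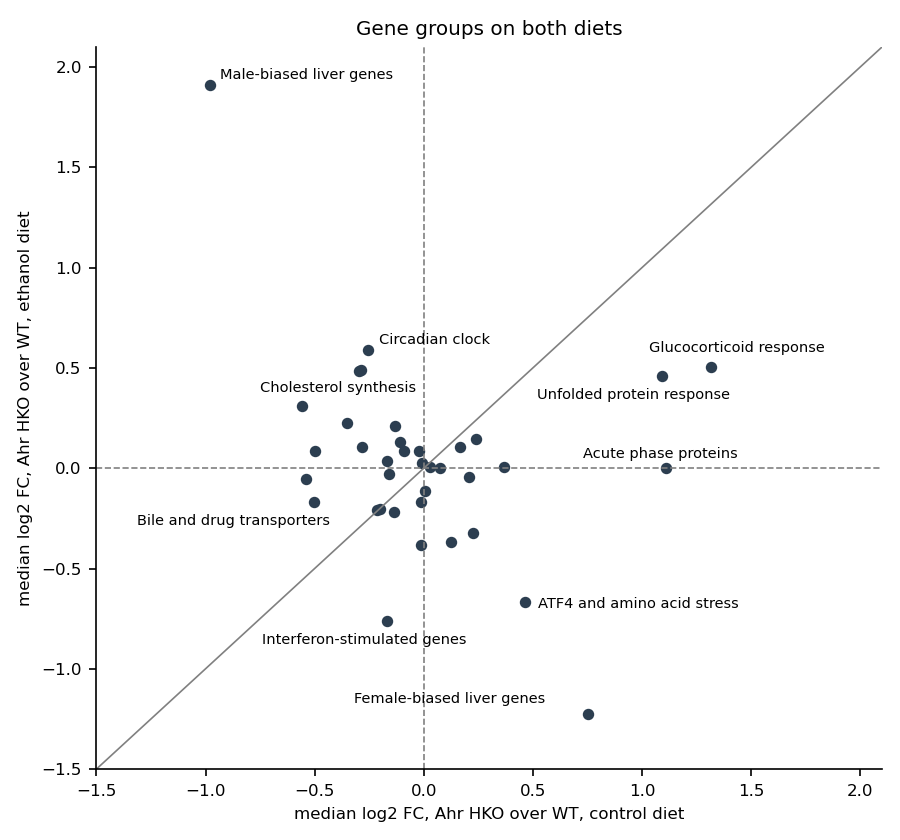
Median log2 FC of *Ahr* HKO over WT for 37 gene groups on the control diet (x axis) and on the ethanol diet (y axis), each point a group, with dashed lines at 0 and a solid line where both are equal. Acute phase genes lie at 1.11 on the control diet and near 0 on ethanol, the unfolded protein response at 1.09 and 0.46, and male-biased genes at −0.98 and 1.91.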

How the data were processed

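RNA sequencing of whole liver was compared in 6 mice on the control diet, 3 WT and 3 *Ahr* HKO, and the 6 mice on ethanol were used for the interaction. Per the study's methods, livers were selected at random from each group, and stranded mRNA libraries from RNA with a RIN above 7 were read in pairs of 100 bases. The submitters' processing notes list FastQC 0.11.7, Trimmomatic 0.38, HISAT2 2.1.0, Bowtie2 2.3.4.1, StringTie 1.3.4d and the build mm10, without their settings. The authors deposited read counts, FPKM and TPM per gene (Entrez identifier and symbol) in a single table. The counts are not normalized, the FPKM and TPM are scaled for gene length and depth by the authors, and the TPM were not used. How reads of near-identical genes were assigned is not given in the sources used here. The labels name no sequencing batch or date.

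Genes were kept by filterByExpr over the 4 groups and scaled by TMM, and the control-diet counts were tested with edgeR 4.0.16 (quasi-likelihood, R 4.3.3) with Benjamini-Hochberg adjustment. *P* values measure the spread between the livers of different mice. The study's own test used FPKM after a logarithm and quantile normalization, without a base or pseudocount given in the sources used here. As alternatives, limma 3.58.1 was run on quantile-normalized log2(FPKM + 1), and DESeq2 1.42.0 on the counts. On simulated counts with the depth of these libraries, 32 of 67 genes changed by 2-fold and 53 of 66 changed by 4-fold were recovered, with 7 false calls among 14038 genes. At 1.5-fold it was 1 of 67. A call in the simulation needed only an adjusted *P* value under 0.05. Far fewer genes were changed there than the 4166 that passed this limit in the data, so the recovery rates do not carry over. Replicates of a group differed by more than sampling noise.

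The 37 gene groups, the 9 marker lists and the tests were chosen with earlier results of these data known. Named were every tested gene of the AhR complex and target groups, the 12 largest increases and decreases among DEGs without overlap that averaged 50 or more counts a library, the 10 largest differences in CPM, the leading genes of each other group with up to 6 further DEGs, and DEGs within 5 Mb of *Ahr*. Further unfolded protein response members, marker genes, genes with the ERSE and genes called on both diets were named after their values were seen. Some genes that this rule names are not reported here, though the counts and medians of groups include them. No list was tested as a set. Promoter sequences (RefSeq, GRCm38.p6) were listed for 11127 tested genes.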

Additional observations from a re-analysis of the deposited data

Results flagged for a closer look

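Several values differed between the diets by a test of the difference itself, the interaction of genotype and diet in edgeR over all 12 libraries. Among the 2782 control-diet DEGs 1745 (62.7%) had an interaction with an adjusted *P* value under 0.05, beside 22.3% of all tested genes. They were 850 of the upregulated and 895 of the downregulated, and the other 1392 genes with an interaction were not DEGs. The DEGs were picked in control-diet livers that the interaction also uses, and this choice raises their share. The values below are the log2 FC of *Ahr* HKO over WT on ethanol minus that on the control diet, so a negative value marks a difference that was lower on ethanol. In the kynurenine group the named genes gave 0.99 for *Kynu*, 1.03 for *Nadsyn1*, 1.36 for *Ido2*, 1.55 for *Afmid* and 2.04 for *Aadat*. The named lipoprotein genes gave −3.38 for *Apoa4*, −1.55 for *Apoa5* and −0.94 for *Abca1*. For transporter genes the interaction was 0.49 for *Slco1b2*, 0.63 for *Abcg5*, 0.88 for *Slc10a1*, 1.17 for *Abcc6*, 1.24 for *Abcg8* and 5.58 for *Slco1a1*. Interactions of sphingolipid genes were −2.88 for *Cers6*, −1.92 for *Sptlc2*, −0.98 for *Acer2*, 0.92 for *Smpd2*, 1.01 for *Ormdl1* and 1.01 for *Sgms2*. Among fatty acid synthesis genes the value was 0.85 for *Dgat2*, 2.37 for *Acss2* and 2.92 for *Srebf1*. Named bile acid synthesis genes had 0.82 for *Akr1c6*, 0.92 for *Cyp27a1*, 1.25 for *Amacr*, 1.55 for *Cyp46a1* and 2.71 for *Cyp8b1*. In the ATF4 group the named genes gave −4.78 for *Psat1*, −2.99 for *Gdf15*, −2.78 for *Nupr1*, −1.44 for *Mthfd2*, −1.32 for *Psph* and −0.89 for *Atf4*. The named clock genes gave −0.94 for *Nfil3*, 2.41 for *Bhlhe41* and 2.74 for *Dbp*. For complement and clotting genes the interaction was 0.58 for *Serpind1*, 1.04 for *C2*, 1.64 for *Klkb1*, 1.68 for *C8b* and 2.12 for *F11*. Interactions of autophagy genes were −0.93 for *Sqstm1*, 0.74 for *Uvrag*, 1.31 for *Calcoco1* and 1.68 for *Wipi1*. Among NRF2 genes the value was −4.37 for *Srxn1*, −2.03 for *Hmox1*, −1.52 for *Gclc*, −1.17 for *Txnrd1* and 0.85 for *Cat*. Named AhR target genes had −3.97 for *Gsta1*, −1.48 for *Cd36*, −1.09 for *Xdh*, −0.78 for *Ppp2r2d*, 1.39 for *Slc46a3* and 2.99 for *Ces3b*.

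In the glucocorticoid-responsive group the named genes gave −7.15 for *Sult1e1*, −4.74 for *Lcn2*, −3.89 for *Cdkn1a* and −1.26 for *Zbtb16*. The named lipid droplet genes gave −3.48 for *Cidec*, −2.45 for *Fabp4*, −2.08 for *Hilpda*, −1.56 for *Plin2* and 1.14 for *Lipe*. For acute phase genes the interaction was −3.83 for *Il1rn*, −3.50 for *Serpina3n*, −3.10 for *Steap4*, −2.40 for *Serpina3m*, −1.46 for *Fga*, −1.31 for *Fgg*, −1.25 for *Fgb* and −0.97 for *Crp*. Interactions of male-biased genes were 2.24 for *Cyp2d9*, 2.25 for *Nudt7*, 2.40 for *Gstp1*, 2.74 for *Cyp2u1*, 3.35 for *Serpina12*, 4.73 for *Mup1*, 5.02 for *Elovl3*, 6.47 for *Mup7* and 11.72 for *Hsd3b5*. In the group of drug-metabolizing genes listed with CAR and PXR the value was −0.51 for *Cyp3a13* and 0.81 for *Ugt2b35*. It was 1.199 for *Cyp2e1*, also in the pericentral group, and 1.49 for *Cyp2f2*, also in the periportal group. Named unfolded protein response genes had −1.67 for *Ddit3*, −1.64 for *Dnajb9*, −0.75 for *Derl1* and 1.17 for *Derl2*. In the nuclear receptor group the named genes gave 0.80 for *Nr2f2*, 1.06 for *Esrra*, 1.55 for *Nr1d1* and 1.68 for *Thrb*. The named fatty acid oxidation genes gave −4.55 for *Fgf21*, −1.49 for *Pdk4*, 0.73 for *Slc27a2* and 0.93 for *Ppargc1a*. For growth hormone axis genes the interaction was −3.53 for *Igfbp1*, 1.07 for *Ghr*, 1.08 for *Igfbp2* and 1.52 for *Igfals*. Interactions of glucose metabolism genes were −0.99 for *Ldha*, 1.47 for *Gys2* and 1.87 for *Pdk2*. Among mitochondrial genes the value was −0.54 for *Nrf1*, 0.66 for *Mfn2*, 0.99 for *Sirt3*, 1.01 for *Mief2*, 1.64 for *Polg2* and 2.61 for *Ppargc1b*. Named lysosome genes had −0.66 for *Tfe3*, 0.68 for *Neu1*, 0.71 for *Tfeb* and 0.90 for *Npc1*. In the PP2A and AMPK group the named genes gave −0.69 for *Ppp2cb*, 0.72 for *Ppp2r5a* and 0.80 for *Ppp2r3a*. Further named genes of the gene groups had −14.48 for *Cyp2b9*, −5.28 for *Lepr*, −2.75 for *Ccnd1*, −1.23 for *Ahr*, −1.08 for *Irgm1*, −0.77 for *Rpl34*, −0.71 for *Slc11a2*, −0.67 for *Arnt*, 0.54 for *Znrf3*, 0.81 for *Mthfd1*, 1.13 for *Hal*, 1.35 for *Stard4*, 1.36 for *E2f1*, 1.497 for *Notum* and 1.70 for *Insig1*.

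Of the other genes, *Gm12070* had −15.28, *Timp1* had −10.37, *Ly6d* had −9.08, *Akr1b7* had −8.23, *Adcy1* had −5.83, *9530077C05Rik* had −5.10, *Slc10a6* had −5.07, *Itgam* had −4.08, *Acnat2* had −3.49, *S100a9* had −3.08, *S100a8* had −3.01, *Alg12* had −0.77, *Serpina1e* had 2.57, *Sox5* had 2.59, *Gm11266* had 2.89, *Rdh18-ps* had 3.22, *Rfx4* had 3.43, *Nrep* had 3.72, *Gm2083* had 3.80, *Bmf* had 3.88, *Fam13a* had 4.01, *Mup14* had 4.55, *Upp2* had 4.61, *C330021F23Rik* had 5.14 and *Clec2h* had 7.88. The values of *Gm12070*, *Cyp2b9*, *Timp1* and *Hsd3b5* involve groups with few or no counts and depend on how the fit treats them. Single livers were not tested for standing apart, since each group holds 3. The reason for these differences was not tested.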

How the results depend on the processing

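The alternatives moved counts more than directions. Beside the 2782 DEGs of the main test, limma on quantile-normalized log2(FPKM + 1) gave 1787 (825 up, 962 down) and limma on plain log2(FPKM + 1) gave 1751 (927 up, 824 down), of which 1726 and 1712 were DEGs of the main test. A pseudocount of 0.1 gave 2850. DESeq2 gave 3168, upper-quartile scaling 2770 (1092 up, 1678 down, with the median log2 FC of all genes shifted by −0.068), library totals alone 2648, no filter on low counts 2714, at least 10 counts in every library 2781 and all 12 libraries in 1 fit 2816. Leaving out each liver in turn gave 2177 to 2760 DEGs, 1071 to 1312 up and 1090 to 1448 down. The interaction was found in 1413 to 1725 of the control-diet DEGs when a liver was left out, and in 1283 to 2115 under the other alternatives, where limma on quantile-normalized log2(FPKM + 1) gave the lowest and DESeq2 the highest. It was not computed with limma on plain log2(FPKM + 1). The log2 FC of *Ahr* stayed between 1.51 and 1.81 without a liver and between 1.35 and 1.63 otherwise, always past the threshold.

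The replicate numbers of the labels did not pair the livers, since the deviations of same-numbered livers from their group means correlated at −0.079, 0.0046 and −0.073. With the replicate block the DEGs were 2382 (1175 up, 1207 down), 2293 of them DEGs of the main test, and the interaction was found in 1473. Among 317 genes named and tested, 229 had an adjusted *P* value under 0.05, and 162 of these kept it at every alternative. The number that lost it was 32 under the block, 21 to 47 with a liver left out and at most 19 under any other alternative, and no value changed sign past the threshold. With all livers kept, 53 of 740 counts of called members of a gene group moved by over 1.5 times, of which 11 involved 3 or more members, as follows. Upregulated AhR targets were 5 with DESeq2 and 1 with the block, upregulated ATF4 genes and female-biased genes were 3 each with the block, upregulated sphingolipid genes 5, upregulated CAR and PXR genes 4, downregulated periportal genes 4 and downregulated interferon-stimulated genes 6 with DESeq2, downregulated one-carbon genes 5 with upper-quartile scaling, and downregulated pericentral genes 3 and downregulated NRF2 genes 1 with limma on plain log2(FPKM + 1). The cause of these shifts was not tested. Depth limits the genes near 3 counts, such as the WT levels of the largest increases.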

Other observations

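Among genes that no group above held, several differed between the genotypes on both diets, in different mice. *Bcl2l1*, which codes for the survival factor BCL-XL, was higher in the livers labelled *Ahr* HKO on the control diet (log2 FC 1.56, adjusted *P* = 0.0054 by edgeR) and on ethanol (1.29, adjusted *P* = 0.0087). *Zbtb20*, a transcription factor of hepatocytes, gave 1.62 and 1.14, and *Nnt*, a mitochondrial source of NADPH, 0.90 and 0.74. *Fam107a* gave 3.51 and 4.01. *Qpct*, a glutaminyl cyclase, was lower on both, with −0.92 and −0.93, as was *Ugp2*, which makes UDP-glucose for glycogen, with −0.76 and −1.11. None of these 6 had an interaction with an adjusted *P* value under 0.05. Others crossed over. *Cyp2a22* went from 3.24 on the control diet to −3.89 on ethanol, *Icam1*, an adhesion molecule, from 1.23 to −1.43, *Tk1*, a thymidine kinase, from −2.26 to 1.35, and *Map2k6*, a stress kinase, from −2.68 to 1.75. All 4 had an interaction, with adjusted *P* values of 0.00046, 0.00034, 7.8e-05 and 0.00064. These genes were chosen after their values were seen.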
